A study of Mus musculus with 12 samples.

Results

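The genes described here encode proteins of the motile axoneme, the moving core of a cilium. They are the mouse genes whose symbol starts with Cfap (cilia and flagella associated protein), together with a fixed list of 36 axonemal names, mostly Ccdc (coiled-coil domain containing) genes and also Drc3, Iqcg, Lrrc6 and Lrrc23. Of the 17711 genes named on the array, 44 belong to this family, and they are read by 71 probes. Of these 44 genes, 24 carry a Cfap name and 35 are on the list, while Lrrc23 was matched to no probe. A gene was tested when at least 1 of its probes was detected, with a detection p under 0.01, on at least 3 of the 12 arrays. This left 37 of the 44 genes, among 9526 genes tested in all. The 7 members that did not pass were Ccdc39, Cfap298, Cfap36, Cfap53, Cfap61, Cfap97d1 and Lrrc6, so the counts below describe 37 genes and not the whole family.

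RNA was measured on Illumina MouseWG-6 bead arrays in 4 groups of 3 arrays, stated by the submitters to be independent biological replicates, all from C57Bl/6 mice. Neurospheres (NSP), floating clusters of dividing cells, were cultured from ependymal cells of the adult spinal cord and were not sorted. Spinal cord (SC) ependymal cells of adults were sorted as CD133+/CD24+/CD45-/CD34-. Lateral ventricular wall (LVW) ependymal cells of adults were sorted with the same markers. Radial glia (RG), the stem cells of the embryonic forebrain, were sorted at embryonic day 14.5 as CD133+/CD24-/CD45-/CD34-. All RNA went through 2 rounds of amplification. Each sort defines its population by surface markers only, so each array holds a mixture of the cells in that gate. The comparisons set the ependymal cells of the spinal cord against those of the ventricle, the ependymal cells against radial glia, and the cultured cells against their tissue of origin and against radial glia.

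An axoneme is a ring of microtubule doublets around a central apparatus. Outer and inner dynein arms on the doublets slide them against each other, and docking complexes, a molecular ruler, radial spokes and the nexin-dynein regulatory complex hold the arms in place and control them. Further proteins line the inside of the doublets and stiffen them. Mature ependymal cells carry such motile cilia, which move cerebrospinal fluid. Radial glia, from which ependymal cells arise during development, carry a primary cilium that does not beat and lacks dynein arms. The factor Foxj1 and the RFX family of transcription factors switch on many genes of motile cilia, and both bind in promoters of such genes.

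The arrays detected between 10742 and 16175 of 46632 probes. Neurosphere replicate 3 stands apart, with 16175 probes detected against 11434 and 11674 in the other neurosphere arrays. Counts over neurospheres were run again without it, and those that changed are given beside the count. The ependymal label was checked with Foxj1, which read 9.45, 9.32 and 9.02 in SC cells and 9.06, 9.32 and 7.87 in LVW cells, against 5.86, 6.01 and 6.57 in radial glia, on the log2 scale of normalised signal used throughout. Foxj1 is 1 of 7 tested ependymal markers, and the others did not all follow it. By the calls defined below, 4 of the 7 were higher and 1 was lower in SC cells than in radial glia. In LVW cells 5 were higher and 0 lower. Cd24a, which encodes the antigen of the ependymal gate, was detected on 1 of 3 SC arrays and on all 3 LVW arrays, and on 0 of 3 radial glia arrays. The radial glia arrays also held markers of choroid plexus, pericytes and neurons. Ttr, the main secreted product of choroid plexus, read 13.81, 13.80 and 13.90 in radial glia and was below detection on every array of the other groups. Kcnj8, a pericyte channel, read 12.53, 12.29 and 12.26 in radial glia, and Neurod2, a factor of young neurons, read 10.67, 10.20 and 10.43. The microglia and leukocyte list had 6 genes on the array, of which 0 passed the filter.

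Most of the 37 members were highest in ependymal cells. In SC ependymal cells 33 members were higher than in radial glia, where 14.8% of all tested genes were called higher. In LVW ependymal cells 34 members were higher than in radial glia, against 16.7% of all genes, and 0 were lower, against 19.7%. In neurospheres 32 members were lower than in the SC ependymal cells they were grown from, against 14.7% of all genes. A gene is called here when its limma p, adjusted by Benjamini-Hochberg over all 9526 genes, is under 0.05. The median member changed by 3.84 on the log2 scale in SC cells over radial glia, by 3.76 in LVW cells over radial glia and by -4.78 in neurospheres over SC cells. The medians of all genes in the same comparisons were -0.14, -0.19 and 0.08. Of the 37, 9 passed the filter through ependymal arrays alone and so had to read higher there, and the counts describe the members that passed. The 9 were Ccdc121, Ccdc150, Ccdc33, Ccdc40, Ccdc87, Cfap300, Cfap57, Cfap74 and Drc3. For these 9 the p-values given below against radial glia or neurospheres are not separate evidence of a direction. In RNA from many cells, a lower share of ciliated cells and less RNA per ciliated cell cannot be told apart. Markers of other cells moved as well. In SC and LVW cells all 6 tested genes of dividing cells were lower than in radial glia, and 4 of 7 neuronal and 3 of 7 endothelial and pericyte genes were lower. Of those 7 endothelial and pericyte genes, 1 was higher in SC cells and 2 were higher in LVW cells. Of 7 astrocyte genes 4 were higher in SC and 5 in LVW cells than in radial glia, and of 6 oligodendrocyte genes 4 and 3. The summed linear signal of the astrocyte genes ran between 14179.6 and 24139 on the SC arrays, between 23351 and 32662 on the LVW arrays and between 6438 and 9249.7 on the radial glia arrays, where Gfap, Aqp4 and Ntsr2 were below detection. The part of these cells in the member changes was not tested.

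The members differed in how far outside the ependymal cells they could be detected. On all 6 ependymal arrays 32 of the 37 were detected. Of these, Ccdc121, Ccdc33, Ccdc87, Cfap57 and Cfap74 were detected on 0 radial glia and 0 neurosphere arrays. A further 5, Cfap161, Cfap206, Cfap43, Cfap52 and Cfap65, were detected on all 3 radial glia arrays and on 0 neurosphere arrays. At the other end, 9 members were detected on all 12 arrays, namely Ccdc114, Ccdc181, Ccdc189, Ccdc191, Cfap100, Cfap20, Cfap410, Cfap69 and Cfap97. Per array, 12, 12 and 19 of the 37 members were detected in neurospheres, the highest number on replicate 3. The numbers were 33, 35 and 34 in SC cells, 37, 37 and 35 in LVW cells, and 21, 23 and 26 in radial glia. Of all tested genes, 75.9%, 76.2% and 88.4% were detected on the neurosphere arrays, so replicate 3 was also highest there. The shares ran between 73.4% and 80.5% on the SC arrays, 75.4% and 79.7% on the LVW arrays, and 81.6% and 85.0% on the radial glia arrays. Among members detected on all 3 arrays of a group, the median SD between arrays was 0.68 for 12 members in neurospheres, 0.15 for 32 in SC cells, 0.37 for 35 in LVW cells and 0.51 for 20 in radial glia. The medians over all genes detected on all 3 arrays were 0.51, 0.30, 0.53 and 0.32. The median of these members was thus above that of all genes in neurospheres and radial glia, and below it in ependymal cells. The genes were not matched by signal level, and the members counted differ between groups.

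**Figure D1:**
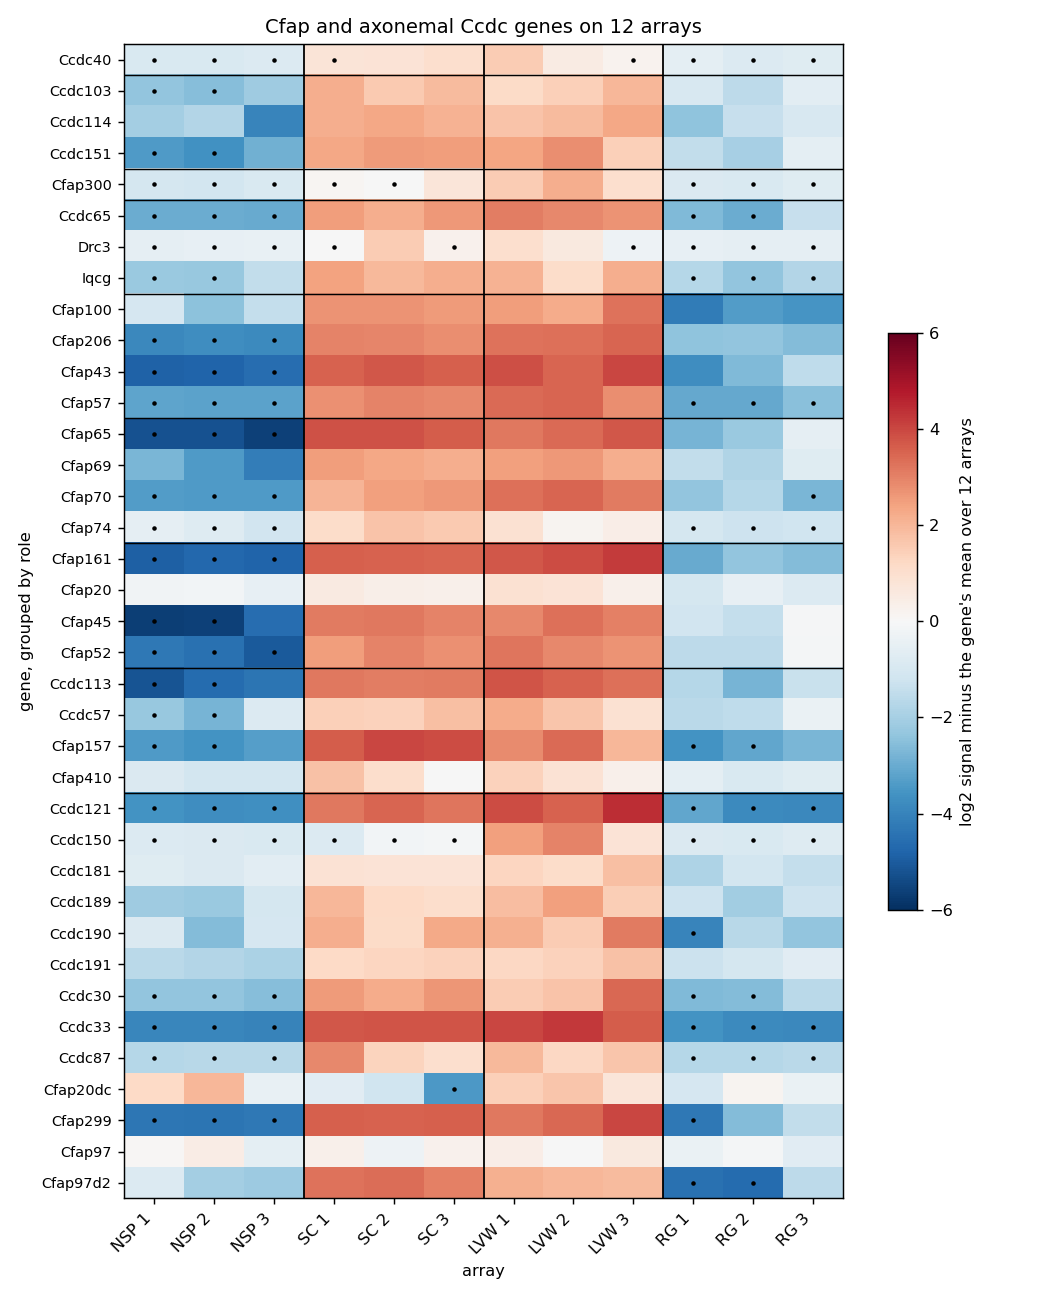
Each column is 1 of the 12 arrays and each row 1 of the 37 tested genes, grouped by role between horizontal lines. Colour gives the log2 signal minus that gene's mean over the 12 arrays, and a dot marks a signal below detection. The 6 ependymal columns are red for nearly all genes, while Cfap20dc is lowest on SC replicate 3 and Ccdc150 is below detection on all 3 SC arrays.

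Because the members moved together, their promoters were read for the motifs of the factors named above. RefSeq (GRCm38.p6) gave a window of 250 bases before to 50 bases after the start site for 35 of the 44 members. The 9 members with no window there are Ccdc121, Ccdc150, Ccdc191, Cfap157, Cfap299, Cfap53, Cfap65, Cfap97 and Lrrc6. Both strands were searched. The RFX core GTTGCC was found for 13 of the 35 members (37.1%), against 14.1% of all 27025 genes with a window. The paired RFX site, made of GTTNCC, any 2 bases and then GGNAAC, reads the same on both strands and can contain the core at either end. It was found for 3 members (8.57%), against 0.529% of all genes. These were Ccdc151, Cfap20dc, which did not follow the other members, and Cfap298, which did not pass the filter. Among the 30 tested members with a window 2 carried the paired site (6.67%), and of these Ccdc151 alone moved with the others. The forkhead core TGTTTAC was found for 3 members (8.57%), against 4.05% of all genes. Each match is a run of letters and not a measured binding site.

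The windows of 4 genes are shown, with motifs in capitals: Ccdc151 for its paired RFX site, Cfap161 for its 3 RFX cores, Cfap43 for its forkhead core, and Cfap20dc because it holds a paired RFX site and yet did not follow the other members. Positions count from the start site, as the leftmost base of the motif, and lie at -34 for Ccdc151, at -66 for the first core of Cfap161, at -55 for Cfap43 and at -102 for Cfap20dc. The paired site of Cfap20dc is made of 2 RFX cores.
Ccdc151 (chr9:22002585-22002884, minus strand): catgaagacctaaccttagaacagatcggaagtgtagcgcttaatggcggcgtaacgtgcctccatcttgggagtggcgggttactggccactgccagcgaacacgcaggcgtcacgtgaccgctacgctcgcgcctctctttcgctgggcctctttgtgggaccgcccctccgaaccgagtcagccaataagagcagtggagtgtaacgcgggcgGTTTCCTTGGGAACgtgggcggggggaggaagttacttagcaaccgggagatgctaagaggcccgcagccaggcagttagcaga
Cfap161 (chr7:83794790-83795089, minus strand): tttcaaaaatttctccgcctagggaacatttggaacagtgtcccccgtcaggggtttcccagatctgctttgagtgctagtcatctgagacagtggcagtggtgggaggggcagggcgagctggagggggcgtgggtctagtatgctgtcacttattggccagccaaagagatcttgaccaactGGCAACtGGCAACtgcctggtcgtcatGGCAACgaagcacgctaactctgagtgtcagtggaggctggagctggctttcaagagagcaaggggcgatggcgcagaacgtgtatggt
Cfap43 (chr19:47837312-47837611, minus strand): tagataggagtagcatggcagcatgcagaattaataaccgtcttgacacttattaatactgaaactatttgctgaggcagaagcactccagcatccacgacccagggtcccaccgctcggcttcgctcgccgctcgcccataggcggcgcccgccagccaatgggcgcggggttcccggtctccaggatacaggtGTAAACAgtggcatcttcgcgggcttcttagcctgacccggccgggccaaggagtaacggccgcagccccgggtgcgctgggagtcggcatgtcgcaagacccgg
Cfap20dc (chr14:8666241-8666540, minus strand): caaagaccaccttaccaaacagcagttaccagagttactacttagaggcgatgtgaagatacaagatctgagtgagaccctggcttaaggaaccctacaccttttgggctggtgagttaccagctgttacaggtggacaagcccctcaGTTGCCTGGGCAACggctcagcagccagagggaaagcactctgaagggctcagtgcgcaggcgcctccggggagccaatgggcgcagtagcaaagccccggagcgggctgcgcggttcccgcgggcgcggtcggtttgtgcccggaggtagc

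**Figure D2:**
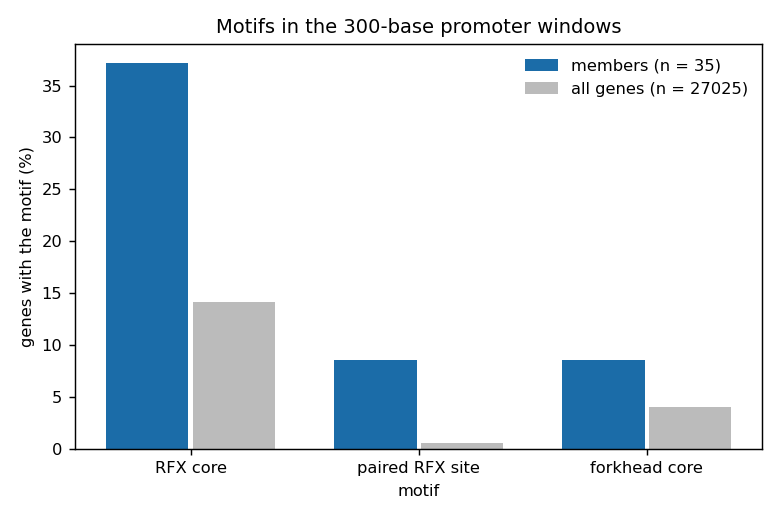
The bars give the percentage of genes whose promoter window of 300 bases holds each motif on either strand, for the 35 members with a window in blue and for all 27025 genes in grey. The RFX core is in 37.1% of members and 14.1% of all genes, the paired RFX site in 8.57% and 0.529%, and the forkhead core in 8.57% and 4.05%.

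The genes that place the dynein arms on the doublet were among those higher in ependymal cells. Ccdc114 and Ccdc151 encode parts of the complex that docks outer dynein arms, and Ccdc103 encodes a factor that attaches the arms. All 3 were higher in SC cells and in LVW cells than in radial glia, and all 3 were lower in neurospheres than in SC cells. Ccdc114 read 9.60, 9.88 and 7.69 in neurospheres and 13.81, 13.97 and 13.73 in SC cells. It read 13.33, 13.55 and 13.98 in LVW cells and 9.21, 10.27 and 10.68 in radial glia. It was detected on all 12 arrays, and the neurosphere and radial glia arrays overlapped. In neurospheres Ccdc114 was lower than in SC cells, with a log2 change of -4.78 ± 0.55 (adjusted p = 5.3e-05). In SC cells it was higher than in radial glia, with a log2 change of 3.78 ± 0.55 (adjusted p = 0.00027). A second probe of Ccdc114, also detected on all 12 arrays, gave much smaller log2 changes. They were -1.49 ± 0.36 in neurospheres over SC cells and 1.18 ± 0.36 in SC cells over radial glia. Ccdc151, whose promoter carries the paired RFX site shown above, read 5.37, 5.11 and 5.88 in neurospheres and 11.05, 11.29 and 11.26 in SC cells. Its levels were 11.13, 11.52 and 10.20 in LVW cells and 7.29, 6.75 and 8.17 in radial glia. The 6 ependymal arrays lay above all radial glia arrays, and these above all neurosphere arrays, of which replicate 3 alone was above detection. In neurospheres Ccdc151 was lower than in SC cells, with a log2 change of -5.75 ± 0.43 (adjusted p = 1.5e-06). Its neurosphere level was also lower than in radial glia, with a log2 change of -1.95 ± 0.43 (adjusted p = 0.0076), which was lost with the authors' values (log2 change -0.90, adjusted p = 0.067). Ccdc103 read 4.94, 4.78 and 5.20 in neurospheres and 9.52, 8.88 and 9.23 in SC cells. Its values were 8.49, 8.75 and 9.32 in LVW cells and 6.35, 5.75 and 6.70 in radial glia. The groups lay in the same order as for Ccdc151, with no overlap between ependymal cells, radial glia and neurospheres. In neurospheres Ccdc103 was lower than in SC cells, with a log2 change of -4.24 ± 0.34 (adjusted p = 2.8e-06). Neurosphere values were also lower than in radial glia, with a log2 change of -1.29 ± 0.34 (adjusted p = 0.02), a call that was lost when RG replicate 1 or 3 or NSP replicate 1 or 2 was left out, with adjusted p between 0.066 and 0.11. It was also lost with a normexp offset of 50 (adjusted p = 0.079), with median scaling (adjusted p = 0.079) and with the authors' values (log2 change -0.47, adjusted p = 0.17).

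Ccdc40 forms, with Ccdc39, the ruler that sets the spacing of inner arms and spokes along a doublet. Ccdc39 did not pass the filter. Ccdc40 read 4.52, 4.55 and 4.60 in neurospheres and 6.20, 6.27 and 6.46 in SC cells. Its levels were 6.97, 5.95 and 5.64 in LVW cells and 4.85, 4.65 and 4.70 in radial glia. It was below detection on all neurosphere and radial glia arrays, and also on SC replicate 1 and LVW replicate 3. In SC cells Ccdc40 was higher than in radial glia by at least 1.64-fold (adjusted p = 0.0036). In neurospheres it was lower than in SC cells by at least 1.57-fold (adjusted p = 0.0022).

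Dynein arms are put together in the cytoplasm before they reach the cilium, and Cfap300 encodes a protein of that step. The other 2 members with this role, Lrrc6 and Cfap298, did not pass the filter. Cfap300 read 4.62, 4.59 and 4.78 in neurospheres and 5.82, 5.68 and 6.43 in SC cells. Its levels were 7.19, 7.84 and 6.68 in LVW cells and 4.83, 4.77 and 4.96 in radial glia. Detection was limited to the 3 LVW arrays and SC replicate 3. In LVW cells Cfap300 was higher than in radial glia by at least 3.13-fold (adjusted p = 0.00019). SC cells had a level higher than in radial glia by at least 1.3-fold (adjusted p = 0.024), which was lost when SC replicate 3 or any 1 radial glia array was left out (adjusted p between 0.064 and 0.1), and with a normexp offset of 50, median scaling or the authors' values (adjusted p between 0.081 and 0.2). The neurosphere level was lower than in SC cells by at least 1.24-fold (adjusted p = 0.012), and this call was lost without SC replicate 3 (adjusted p = 0.053), with median scaling (adjusted p = 0.14) and with the authors' values (adjusted p = 0.082).

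The nexin-dynein regulatory complex links neighbouring doublets and controls the arms. Of its 3 members among these genes, Ccdc65 and Iqcg were called in all comparisons of ependymal cells with radial glia or neurospheres, and Drc3 in none. Ccdc65 read 4.74, 4.75 and 4.72 in neurospheres and 10.26, 9.93 and 10.34 in SC cells. Its levels were 10.82, 10.62 and 10.45 in LVW cells and 5.10, 4.74 and 6.35 in radial glia. Outside the ependymal cells it was detected on RG replicate 3 alone. In neurospheres Ccdc65 was lower than in SC cells by at least 22.9-fold (adjusted p = 9.1e-07). In SC cells it was higher than in radial glia, with a log2 change of 4.78 ± 0.38 (adjusted p = 2.4e-06). Iqcg read 4.84, 4.78 and 5.58 in neurospheres and 9.49, 8.99 and 9.22 in SC cells. Its values were 9.13, 8.14 and 9.23 in LVW cells and 5.33, 4.68 and 5.31 in radial glia. It was below detection on all radial glia arrays and above it on NSP replicate 3. In SC cells Iqcg was higher than in radial glia by at least 12.5-fold (adjusted p = 7.2e-06). Neurosphere signal was lower than in SC cells, with a log2 change of -4.17 ± 0.38 (adjusted p = 7.2e-06). Drc3 read 4.74, 4.77 and 4.85 in neurospheres and 5.26, 6.81 and 5.52 in SC cells. Its levels were 6.28, 5.87 and 4.97 in LVW cells and 4.78, 4.72 and 4.76 in radial glia. It was detected on 1 SC array and 2 LVW arrays, so its signal was near the limit of detection everywhere.

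Inner dynein arms, their tethers and the radial spokes form the next group. Cfap43 encodes part of the tether of an inner arm, as shown in Chlamydomonas and Tetrahymena. Cfap57 and Cfap100 are known in Chlamydomonas for the assembly and regulation of inner arms, and Cfap206 in Tetrahymena for the base of a radial spoke. All 4 were higher in both kinds of ependymal cells than in radial glia and lower in neurospheres than in SC cells. Cfap43, whose promoter holds the forkhead core shown above, read 4.69, 4.74 and 4.97 in neurospheres and 13.11, 13.31 and 13.12 in SC cells. Its levels were 13.41, 13.03 and 13.57 in LVW cells and 5.84, 6.91 and 8.04 in radial glia. The radial glia arrays lay above all neurosphere arrays, which were below detection. By this probe, Cfap43 in neurospheres was lower than in SC cells by at least 183-fold (adjusted p = 1.3e-07). A second probe of the gene, detected on 1 neurosphere array, changed less, by -5.10 ± 0.44 on the log2 scale. By the first probe Cfap43 was also lower in neurospheres than in radial glia, by at least 2.41-fold (adjusted p = 0.0062). The second probe was not called there, nor was the mean of the probes (adjusted p = 0.055). Cfap206 read 4.56, 4.69 and 4.62 in neurospheres and 11.38, 11.37 and 11.21 in SC cells. Its values were 11.68, 11.74 and 11.92 in LVW cells and 6.03, 6.05 and 5.84 in radial glia. As for Cfap43, it was detected in radial glia and on 0 neurosphere arrays. In neurospheres Cfap206 was lower than in SC cells by at least 50.6-fold (adjusted p = 7.7e-09). Its neurosphere level was also lower than in radial glia by at least 1.25-fold (adjusted p = 0.0019), with a second probe not called, and the call was lost without background correction (adjusted p = 0.36). Against SC cells that second probe, detected on 1 neurosphere array, changed less than the first, by -3.86 ± 0.44 on the log2 scale. Cfap57 read 4.64, 4.59 and 4.62 in neurospheres and 10.55, 10.78 and 10.70 in SC cells. Its levels were 11.20, 11.31 and 10.61 in LVW cells and 4.73, 4.74 and 5.31 in radial glia. It was seen in ependymal cells alone. In SC cells Cfap57 was higher than in radial glia by at least 33.9-fold (adjusted p = 6.4e-08). In neurospheres it was lower than in SC cells by at least 32.3-fold (adjusted p = 6.3e-08).

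Cfap100 was the 1 member called higher in neurospheres than in radial glia. Cfap100 read 8.71, 7.25 and 8.24 in neurospheres and 12.36, 12.38 and 12.26 in SC cells. Its levels were 12.22, 11.91 and 12.95 in LVW cells and 5.51, 6.32 and 6.17 in radial glia. All 12 arrays detected it, and the neurosphere arrays lay between the SC arrays and the radial glia arrays without overlap. In neurospheres Cfap100 was lower than in SC cells, with a log2 change of -4.27 ± 0.42 (adjusted p = 1.3e-05). In the same cells it was higher than in radial glia, with a log2 change of 2.07 ± 0.42 (adjusted p = 0.0043). This call was lost with median scaling (adjusted p = 0.094).

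The central apparatus is represented by Cfap65, Cfap69, Cfap70 and Cfap74. All 4 were higher in SC and LVW cells than in radial glia and lower in neurospheres than in SC cells. In neurospheres 3 of the 4 were also lower than in radial glia. Cfap65 read 5.12, 5.08 and 4.74 in neurospheres and 14.13, 14.16 and 13.98 in SC cells. Its levels were 13.49, 13.71 and 14.06 in LVW cells and 7.56, 8.12 and 9.81 in radial glia. Radial glia lay far below the ependymal arrays and above the neurosphere arrays, which were below detection, and RG replicate 3 was the highest of its group. In neurospheres Cfap65 was lower than in SC cells by at least 344-fold (adjusted p = 1e-07). Neurosphere values were also lower than in radial glia by at least 7.13-fold (adjusted p = 0.00033). Cfap69 read 7.76, 7.13 and 6.39 in neurospheres and 13.01, 12.85 and 12.72 in SC cells. Its values were 12.98, 13.14 and 12.72 in LVW cells and 9.03, 8.74 and 9.78 in radial glia. Detection on all 12 arrays sets it apart from Cfap65. In neurospheres Cfap69 was lower than in SC cells, with a log2 change of -5.77 ± 0.39 (adjusted p = 6.3e-07). It was also lower than in radial glia, with a log2 change of -2.09 ± 0.39 (adjusted p = 0.0025). Cfap70 read 4.82, 4.77 and 4.81 in neurospheres and 10.22, 10.65 and 10.76 in SC cells. Its levels were 11.48, 11.68 and 11.28 in LVW cells and 5.80, 6.48 and 5.46 in radial glia. The SC arrays lay below the LVW arrays without overlap, and neurospheres were below detection. In neurospheres Cfap70 was lower than in SC cells by at least 29.5-fold (adjusted p = 1.3e-07). Its neurosphere level was also lower than in radial glia by at least 1.19-fold (adjusted p = 0.026), with a second probe not called, and the call was lost when RG replicate 1 or 2 or NSP replicate 1 or 2 was left out (adjusted p between 0.072 and 0.12). It was also lost with a normexp offset of 50, median scaling, the mean of its probes or the authors' values (adjusted p between 0.051 and 0.19). Cfap74 read 5.61, 5.37 and 4.97 in neurospheres and 7.24, 7.82 and 7.71 in SC cells. Its values were 7.05, 6.28 and 6.52 in LVW cells and 5.08, 4.90 and 4.95 in radial glia. It was above detection in ependymal cells alone. In SC cells Cfap74 was higher than in radial glia by at least 3.99-fold (adjusted p = 5.5e-05). The neurosphere level was lower than in SC cells by at least 3.81-fold (adjusted p = 0.00019).

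The proteins inside the doublet microtubules gave 4 tested members, Cfap161, Cfap45, Cfap52 and Cfap20, while Cfap53 did not pass the filter. All 4 were higher in SC and LVW cells than in radial glia. In neurospheres 3 of the 4 were lower than in SC cells, and the same 3 were lower than in radial glia. Cfap161, with the 3 RFX cores shown above, read 4.60, 4.77 and 4.68 in neurospheres and 13.07, 13.02 and 12.98 in SC cells. Its levels were 13.23, 13.41 and 13.68 in LVW cells and 6.44, 7.12 and 6.88 in radial glia. The 3 radial glia arrays detected it and the neurosphere arrays did not. In neurospheres Cfap161 was lower than in SC cells by at least 165-fold (adjusted p = 6.5e-09). Neurosphere values were also lower than in radial glia by at least 2.23-fold (adjusted p = 0.00018). Cfap45 read 5.09, 5.14 and 6.16 in neurospheres and 13.85, 13.92 and 13.73 in SC cells. Its values were 13.64, 14.06 and 13.78 in LVW cells and 9.62, 9.31 and 10.68 in radial glia. Radial glia were well above detection on every array, while NSP replicate 3 alone passed it among neurospheres. In neurospheres Cfap45 was lower than in SC cells, with a log2 change of -8.37 ± 0.40 (adjusted p = 6.4e-08). It was also lower than in radial glia, with a log2 change of -4.41 ± 0.40 (adjusted p = 1.4e-05). Cfap52 read 5.54, 5.38 and 4.81 in neurospheres and 12.35, 12.83 and 12.60 in SC cells. Its levels were 13.07, 12.71 and 12.54 in LVW cells and 8.26, 8.28 and 9.72 in radial glia. Its order of groups was that of Cfap45. In neurospheres Cfap52 was lower than in SC cells by at least 122-fold (adjusted p = 1.5e-07). Its neurosphere level was also lower than in radial glia by at least 8.53-fold (adjusted p = 9.6e-05). Cfap20, which is made in many cell types, read 9.66, 9.73 and 9.40 in neurospheres and 10.42, 10.23 and 10.18 in SC cells. Its values were 10.82, 10.69 and 10.19 in LVW cells and 8.85, 9.38 and 9.07 in radial glia. All 12 arrays detected it, and its groups lay close together. In SC cells Cfap20 was higher than in radial glia, with a log2 change of 1.17 ± 0.28 (adjusted p = 0.0074), which was lost with median scaling (adjusted p = 0.48). In neurospheres it changed by -0.68 (95% interval -1.29 to -0.06, adjusted p = 0.091) against SC cells and was not called.

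Cfap157, Ccdc113, Ccdc57 and Cfap410 encode proteins of the basal body, centriole or centriolar satellites, for Ccdc113, Ccdc57 and Cfap410 as known from human cells. All 4 were higher in SC and LVW cells than in radial glia and lower in neurospheres than in SC cells. Cfap157, a target of Foxj1 in mice, read 5.05, 4.84 and 5.13 in neurospheres and 12.09, 12.43 and 12.35 in SC cells. Its levels were 11.26, 11.84 and 10.43 in LVW cells and 4.84, 5.30 and 5.69 in radial glia. Outside the ependymal cells it was detected on NSP replicate 3 and RG replicate 3 alone. In neurospheres Cfap157 was lower than in SC cells, with a log2 change of -7.29 ± 0.37 (adjusted p = 8.8e-08). In SC cells it was higher than in radial glia, with a log2 change of 7.01 ± 0.37 (adjusted p = 9.6e-08). Both changes are differences of signal in which the lower group was detected on 1 of 3 arrays. Ccdc113 read 4.85, 5.43 and 5.67 in neurospheres and 13.20, 13.11 and 13.18 in SC cells. Its values were 13.83, 13.57 and 13.34 in LVW cells and 8.34, 7.27 and 8.72 in radial glia. Radial glia lay between the ependymal cells and the neurospheres. In neurospheres Ccdc113 was lower than in SC cells, with a log2 change of -7.85 ± 0.38 (adjusted p = 7e-08). Neurosphere values were also lower than in radial glia, with a log2 change of -2.80 ± 0.38 (adjusted p = 0.00033). Ccdc57 read 5.58, 5.08 and 7.05 in neurospheres and 9.29, 9.27 and 9.69 in SC cells. Its levels were 10.08, 9.51 and 8.79 in LVW cells and 6.24, 6.36 and 7.44 in radial glia. Neurospheres and radial glia overlapped, with replicate 3 the highest in each. In neurospheres Ccdc57 was lower than in SC cells, with a log2 change of -3.51 ± 0.53 (adjusted p = 0.00044). In SC cells it was higher than in radial glia, with a log2 change of 2.74 ± 0.53 (adjusted p = 0.002). Cfap410 read 6.37, 6.10 and 6.09 in neurospheres and 8.96, 8.26 and 7.21 in SC cells. Its values were 8.58, 8.08 and 7.50 in LVW cells and 6.64, 6.28 and 6.48 in radial glia. All 12 arrays detected it. In SC cells Cfap410 was higher than in radial glia, with a log2 change of 1.68 ± 0.43 (adjusted p = 0.011), which was lost with median scaling (adjusted p = 0.19) and with the mean of its probes (adjusted p = 0.084). A second probe of Cfap410 was not called in that comparison, nor in LVW cells against radial glia. In neurospheres over radial glia the second probe was called lower, by -1.56 ± 0.38 on the log2 scale (adjusted p = 0.013 over all kept probes). The first probe was not called there.

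Of the 13 tested members without an assigned place in the axoneme, 10 were higher in SC cells than in radial glia, 11 were higher in LVW cells, and 10 were lower in neurospheres than in SC cells. Ccdc33 read 4.64, 4.66 and 4.56 in neurospheres and 12.30, 12.33 and 12.37 in SC cells. Its levels were 12.58, 12.81 and 12.22 in LVW cells and 4.99, 4.74 and 4.70 in radial glia. All neurosphere and radial glia arrays were below detection. In SC cells Ccdc33 was higher than in radial glia by at least 107-fold (adjusted p = 5.1e-09). Neurosphere signal was lower than in SC cells by at least 102-fold (adjusted p = 6.5e-09). Ccdc121 read 4.88, 4.77 and 4.82 in neurospheres and 11.66, 11.99 and 11.72 in SC cells. Its values were 12.42, 12.03 and 12.93 in LVW cells and 5.37, 4.65 and 4.63 in radial glia. Its pattern of detection was that of Ccdc33. In SC cells Ccdc121 was higher than in radial glia by at least 73.5-fold (adjusted p = 3.6e-08). In neurospheres it was lower than in SC cells by at least 70.2-fold (adjusted p = 4.5e-08). Cfap299 read 4.93, 4.87 and 4.95 in neurospheres and 12.84, 12.78 and 12.85 in SC cells. Its levels were 12.41, 12.71 and 13.24 in LVW cells and 4.94, 6.63 and 7.78 in radial glia. In radial glia it was below detection on replicate 1 and highest on replicate 3. By this probe, Cfap299 in neurospheres was lower than in SC cells by at least 143-fold (adjusted p = 9.7e-07). A second probe of the gene, detected on 1 neurosphere array, changed less, by -5.88 ± 0.45 on the log2 scale. Cfap97d2 read 8.59, 7.37 and 7.24 in neurospheres and 12.65, 12.73 and 12.44 in SC cells. Its values were 11.55, 11.39 and 11.31 in LVW cells and 4.93, 4.81 and 7.85 in radial glia. It was detected on all 3 neurosphere arrays and, in radial glia, on replicate 3 alone. In neurospheres Cfap97d2 was lower than in SC cells, with a log2 change of -4.88 ± 0.68 (adjusted p = 0.00025). Against radial glia it changed by 1.86 (95% interval 0.36 to 3.37, adjusted p = 0.079) in neurospheres and was not called.

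Ccdc190 and Ccdc30 each had 2 tested probes that did not give the same calls. Ccdc190 read 8.03, 6.29 and 7.86 in neurospheres and 11.07, 10.03 and 11.14 in SC cells. Its levels were 11.02, 10.41 and 11.97 in LVW cells and 4.92, 7.22 and 6.51 in radial glia. It was below detection on RG replicate 1 alone. In SC cells Ccdc190 was higher than in radial glia, with a log2 change of 4.53 ± 0.66 (adjusted p = 0.00029). The neurosphere level was lower than in SC cells, with a log2 change of -3.35 ± 0.66 (adjusted p = 0.0027). The second probe of Ccdc190 was called in neither comparison. Ccdc30 read 4.88, 4.88 and 4.70 in neurospheres and 9.81, 9.49 and 9.92 in SC cells. Its values were 8.78, 8.98 and 10.72 in LVW cells and 4.62, 4.68 and 5.64 in radial glia. It was detected on all 6 ependymal arrays and on RG replicate 3. In SC cells Ccdc30 was higher than in radial glia, with a log2 change of 4.76 ± 0.48 (adjusted p = 1.6e-05). Neurosphere signal was lower than in SC cells by at least 16.9-fold (adjusted p = 1.4e-05). The second probe of Ccdc30 was called in neither comparison. Of the other tested members, Ccdc87, which mouse sperm need for the acrosome, Ccdc181, Ccdc189 and Ccdc191 were called higher in SC and LVW cells than in radial glia and lower in neurospheres than in SC cells. Their log2 changes in SC cells over radial glia ran between 2.29 ± 0.27 for Ccdc191 and 2.93 ± 0.44 for Ccdc189, and Ccdc87 was at least 5.41-fold higher. Cfap97, in Drosophila the gene hemingway of cilia and sperm tails, was called in 0 comparisons. It read 11.06, 11.47 and 10.41 in neurospheres and 11.33, 10.72 and 11.26 in SC cells. Its levels were 11.43, 10.99 and 11.61 in LVW cells and 10.60, 10.87 and 10.33 in radial glia, and the 4 groups lay close together.

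**Figure D3:**
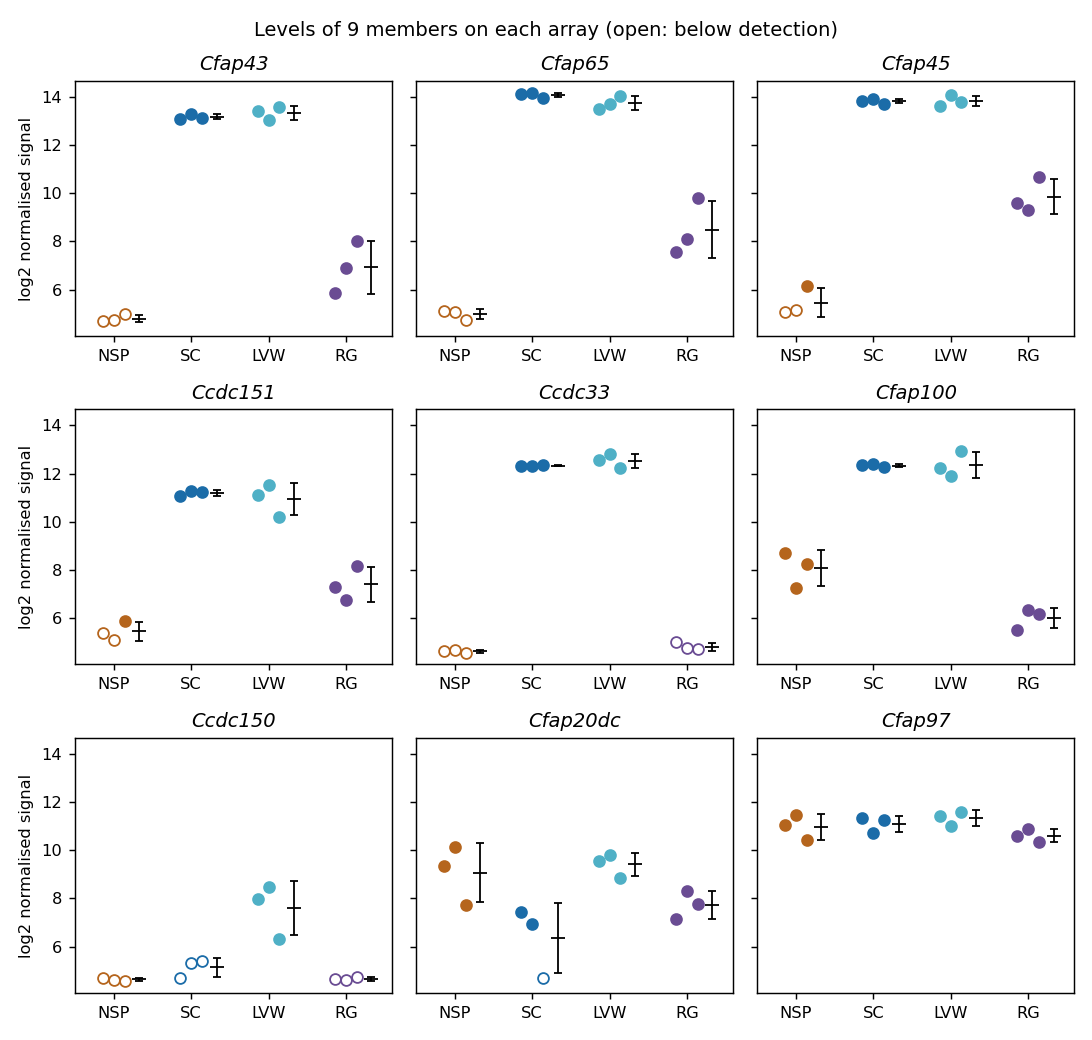
Each panel plots the log2 normalised signal of 1 gene on the 3 arrays of each group, with neurospheres (NSP) on the left, then SC cells, LVW cells and radial glia (RG). Open points are below detection, and the bar gives the mean with its SD (n = 3). Cfap43, Cfap65 and Cfap45 lie near 13 to 14 in ependymal cells, lower in radial glia and lowest in neurospheres. Cfap100 is higher in neurospheres than in radial glia, Cfap20dc is lowest in SC cells, and Cfap97 is level.

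Few members were called between the ependymal cells of the spinal cord and those of the ventricle. In SC cells 3 of 37 members were lower than in LVW cells (8.11%), where 4.95% of all tested genes were called lower. No member was called higher (0 of 37, against 3.09% of all genes), and at an unadjusted p under 0.05 2 members were higher, Cfap157 and Cfap74. The median member changed by -0.16 and the median of all genes by 0.05. The 3 genes were Ccdc150, Cfap20dc and Cfap300. Ccdc150 read 4.69, 5.32 and 5.38 in SC cells, all below detection, against 7.99, 8.46 and 6.32 in LVW cells. In neurospheres it read 4.70, 4.62 and 4.58 and in radial glia 4.66, 4.59 and 4.74, so LVW cells were the sole group that detected it. Ccdc150 in SC cells was lower than in LVW cells by at least 3.11-fold (adjusted p = 0.0074). It passed the filter through its 3 LVW arrays alone, so it had to read higher there, and without any 1 of them it no longer passed.

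Cfap20dc, a gene named for a domain shared with Cfap20, departed from the other members. Cfap20dc read 9.35, 10.12 and 7.71 in neurospheres and 7.44, 6.95 and 4.69 in SC cells. Its levels were 9.57, 9.80 and 8.86 in LVW cells and 7.13, 8.31 and 7.76 in radial glia. The lowest values were those of SC cells, with SC replicate 3 below detection, and the neurosphere and LVW arrays overlapped. In SC cells Cfap20dc was lower than in LVW cells, with a log2 change of -3.05 ± 0.74 (adjusted p = 0.029). This call was lost without LVW replicate 1 or 2 or SC replicate 3 (adjusted p between 0.073 and 0.088), without background correction (adjusted p = 0.13) and without a filter (adjusted p = 0.082), and without SC replicate 3 the log2 change was -2.22. In neurospheres Cfap20dc was higher than in SC cells, with a log2 change of 2.70 ± 0.74 (adjusted p = 0.017). It was the 1 member called higher there, where 15.5% of all genes were, and the call was lost without SC replicate 3 or NSP replicate 1 or 2 (adjusted p between 0.059 and 0.08), without background correction (adjusted p = 0.07) and without a filter (adjusted p = 0.054). In the fit to the 6 arrays of neurospheres and SC cells the adjusted p was 0.068. Against radial glia it changed by -1.37 (95% interval -3.00 to 0.26, adjusted p = 0.19) in SC cells. In SC cells Cfap300, whose values are given above, was lower than in LVW cells, with a log2 change of -1.26 ± 0.34 (adjusted p = 0.041). The call of Cfap300 was lost when any 1 of 9 arrays was left out (adjusted p between 0.056 and 0.15), and with another background correction, median scaling or the authors' values (adjusted p between 0.066 and 0.17). In a fit to the 6 arrays of the 2 groups, none of the 3 was called, and the adjusted p was 0.1 for Ccdc150, 0.11 for Cfap20dc and 0.17 for Cfap300.

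Of the 34 members not called between the 2 ependymal groups, 10 had a 95% interval that lay within a log2 difference of 1 in either direction, namely Ccdc191, Ccdc33, Ccdc40, Cfap100, Cfap20, Cfap206, Cfap45, Cfap57, Cfap69 and Cfap97. For Cfap45, a protein inside the doublets, the SC minus LVW difference was 0.00 (95% interval -0.88 to 0.88, adjusted p = 1). For the central apparatus gene Cfap69 it was -0.09 (95% interval -0.93 to 0.76, adjusted p = 0.94). The other 24 intervals reached past a log2 difference of 1. The widest was that of Cfap97d2, at 1.19 (95% interval -0.31 to 2.69, adjusted p = 0.35). Cfap157 and Cfap74 lay on the positive side without passing the threshold, at 1.12 (95% interval 0.30 to 1.93, adjusted p = 0.097) and 0.97 (95% interval 0.29 to 1.64, adjusted p = 0.082). Cfap70 lay on the negative side at -0.93 (95% interval -1.62 to -0.25, adjusted p = 0.099), and its second probe was called lower (adjusted p = 0.0098 over all kept probes).

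**Figure D4:**
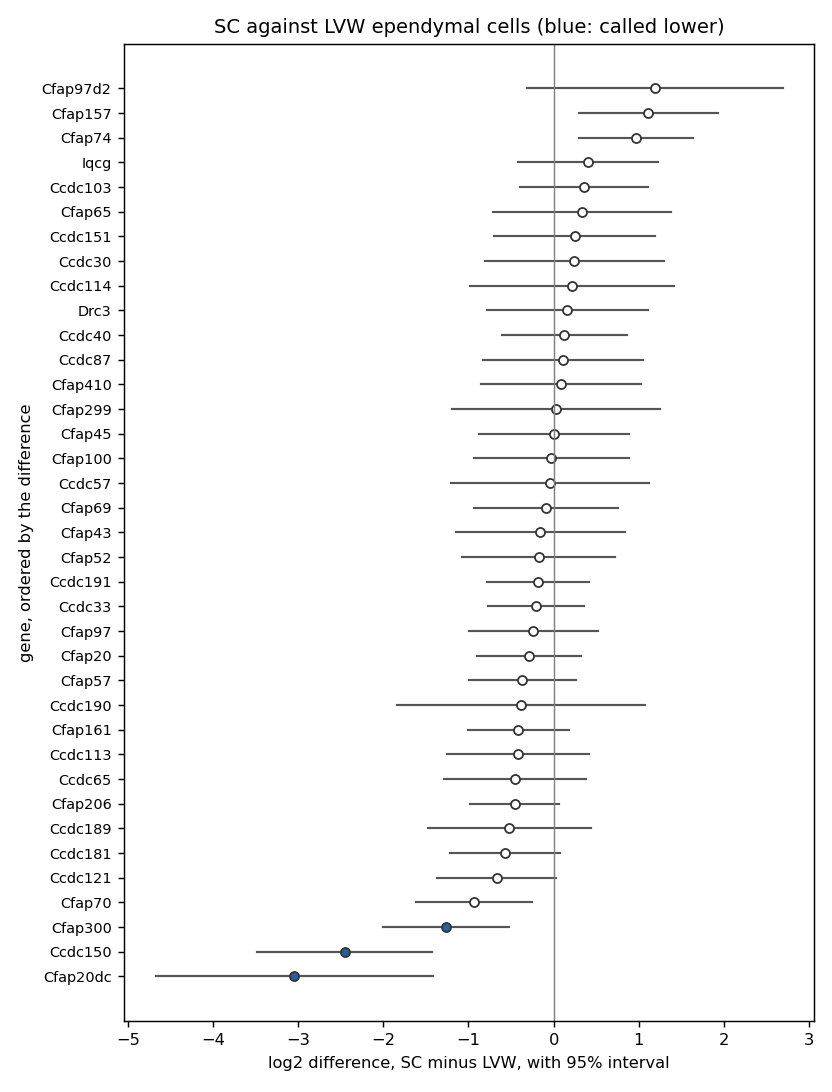
Each point is the log2 difference, SC minus LVW, of 1 of the 37 tested genes, and the line its 95% interval from the fit to all 12 arrays. The genes called lower in SC cells are filled, namely Ccdc150, Cfap20dc and Cfap300, and the other 34 points are open.

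Other markers also differed between the 2 ependymal groups. Of 7 tested genes of the choroid plexus list, which borders the ventricular wall, 3 were lower in SC than in LVW cells and 0 were higher. Their summed linear signal ran between 1191 and 1758 on the SC arrays and between 4036 and 6557 on the LVW arrays, with Ttr below detection on all 6. Of 6 tested oligodendrocyte genes 1 was higher in SC cells. The summed signal of that list ran between 1699.6 and 21707 on the SC arrays, lowest on replicate 1, and between 4908 and 12457 on the LVW arrays. Of the 7 ependymal markers 2, Cd24a and Prom1, were lower in SC cells, and 1 gene of dividing cells, Mcm5, and 1 neuronal gene, Stmn2, were higher. These genes are named after their values were seen. The part of these cells in the lower Ccdc150, Cfap20dc and Cfap300 was not tested.

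Set against radial glia, the members split by how much signal radial glia had. For 31 members the arrays of SC cells lay above those of radial glia without overlap and were all above detection, where 52.2% of all genes were so separated in either direction. For 35 members the arrays of LVW cells did, against 46.9% of all genes. Not called were Cfap20dc, Cfap97 and Drc3 in LVW cells and the same 3 with Ccdc150 in SC cells. Of the 37 members, 10 were below detection on all radial glia arrays, 7 were detected on 1 or 2 and 20 on all 3. RG replicate 3 held the highest radial glia value for 20 of the 37 members (54.1%), against 30.0% of all genes. This ranking includes the 10 members below detection on all radial glia arrays, whose signals there have no order. Choroid plexus epithelium itself carries cilia, and some of its markers also varied between these arrays. Folr1, one such marker, read 7.72, 7.40 and 9.21 on RG replicates 1 to 3, Clic6 read 10.63, 11.41 and 12.50, and Sostdc1 read 7.75, 9.08 and 9.93. All 3 were highest on RG replicate 3, while Ttr, whose values are given above, was nearly level across the radial glia arrays. Folr1 was also detected in SC and LVW cells, with a mean of 9.73 in SC cells against 8.11 in radial glia. Sostdc1 had a mean of 9.07 in LVW cells against 8.92 in radial glia. The summed signal of the 7 tested choroid genes ran between 17147 and 23688 in radial glia, and 5 to 7 of them were detected on each array. The part of such cells in the radial glia levels was not tested. Without RG replicate 3, 32 members were higher in SC cells and 34 in LVW cells.

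Neurospheres lay below the level of radial glia for part of the family. In neurospheres 11 of 37 members (29.7%) were lower than in radial glia, against 11.1% of all genes, and 1 was higher, against 9.23%. The median member changed by -0.28, and by -0.25 with genes at their bounds, while the median of all genes was -0.05. The 11 were Ccdc103, Ccdc113, Ccdc151, Cfap161, Cfap206, Cfap43, Cfap45, Cfap52, Cfap65, Cfap69 and Cfap70. They come from the docking, spoke, central apparatus, doublet lumen and basal body groups, and 0 of the 13 members without an assigned place was called. Beside 11.1% of all genes called lower and 9.23% higher, this small count does not set the 13 apart. Of them, Ccdc121, Ccdc150, Ccdc33 and Ccdc87 were below detection on all radial glia arrays. At an unadjusted limma p under 0.05, Ccdc191 and Cfap299 were lower, and Ccdc181 and Cfap97d2 were higher. For the 10 members below detection on all radial glia arrays a lower level could not be measured. With every array of the higher group detected, neurospheres and radial glia did not overlap for 14 of 37 members, 11 of them lower and 3 higher. This is close to the share of all genes, 37.2%, so separation as such did not set the members apart. Without NSP replicate 3 these were 13 and 5, for which the share of all genes was not taken. The counts of calls without NSP replicate 3 were again 11 lower and 1 higher, and without RG replicate 3 they were 10 and 2. Markers of other cells also moved here. In neurospheres 5 of 7 tested choroid plexus genes were lower than in radial glia, with a median log2 change of -3.48, and their summed signal ran between 210.2 and 304 on the neurosphere arrays and between 17147 and 23688 on the radial glia arrays. In neurospheres 4 of 7 neuronal genes, 3 of 7 endothelial and pericyte genes and 2 of 6 genes of dividing cells were lower, the last 4 of 6 without NSP replicate 3. In the same comparison 5 of 7 astrocyte genes, 1 of 7 neuronal genes and 1 of 6 oligodendrocyte genes were higher. Ttr, Folr1, Otx2, Aqp1, Neurod2, Rgs5 and Kcnj8 were below detection on all neurosphere arrays. The part of these cells in the lower members was not tested.

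In neurospheres against SC cells, 31 members lay below without overlap, with all SC arrays above detection, and 1, Cfap20dc, lay above, where 41.8% of all genes were so separated. The numbers were the same without NSP replicate 3. The members not called were Ccdc150, Cfap20, Cfap97 and Drc3. With genes at their bounds the median member was -4.27. Without NSP replicate 3, 32 members were lower and 1 higher, as with it. All 6 tested genes of dividing cells were higher in neurospheres than in SC cells, and 4 of 7 tested ependymal markers were lower. Without NSP replicate 3 the numbers were 5 of 6 and 5 of 7. The summed signal of the dividing-cell genes ran between 3250.1 and 8318 on the neurosphere arrays and between 691 and 1167 on the SC arrays. Of 6 oligodendrocyte genes 4 were lower in neurospheres than in SC cells, with a median log2 change of -4.23, and 3 were lower without NSP replicate 3. Their summed signal ran between 366.7 and 579 on the neurosphere arrays, against 1699.6 to 21707 on the SC arrays. Mbp, the myelin basic protein, was lower than in SC cells by at least 99.5-fold (adjusted p = 4.2e-05). The part of cell division and of the mix of cells in the lower signals was not tested.

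**Figure D5:**
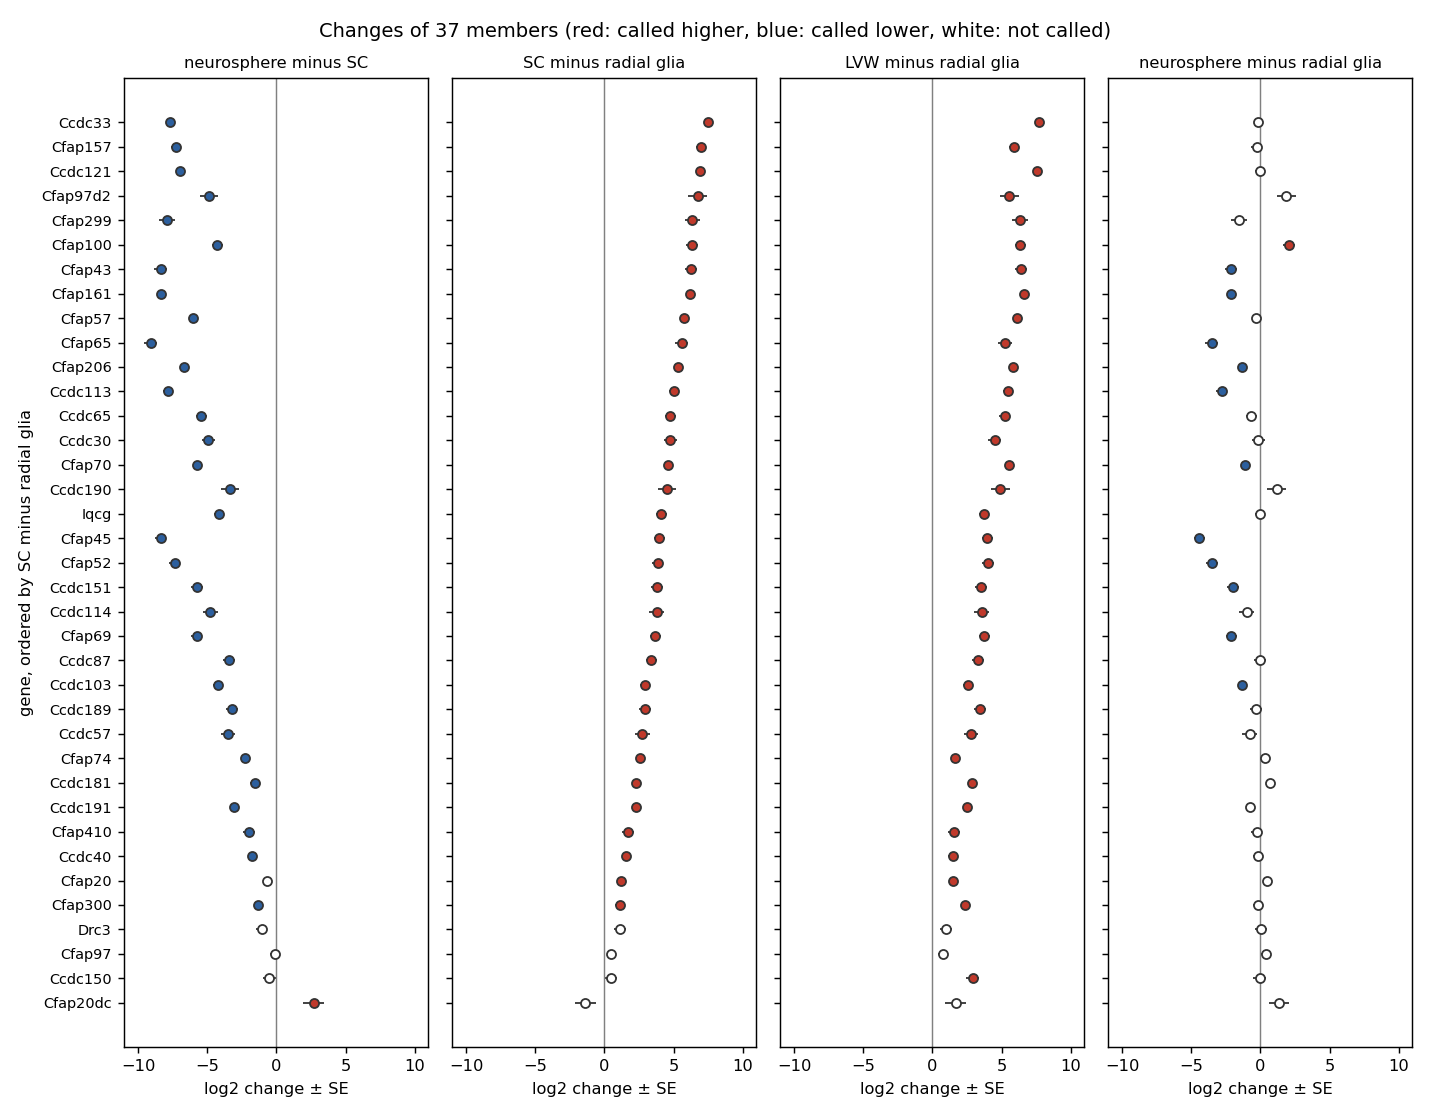
Each panel gives the log2 change of the 37 tested genes in 1 comparison, with its standard error, and the genes run in the order of SC minus radial glia. Red points were called higher, blue points lower, and white points were not called. The 32 blue points of neurospheres against SC cells face 33 red points of SC cells and 34 of LVW cells against radial glia, and against radial glia neurospheres had 11 blue points and 1 red point, Cfap100.

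Other genes of motile cilia moved much as the members did. The list of other axonemal genes had 42 on the array, of which 36 were tested. In SC cells 31 of the 36 were higher than in radial glia and 0 were lower. In LVW cells 33 were higher and 1, Dnaaf1, was lower. In neurospheres 33 were lower than in SC cells and 0 higher, and 17 were lower than in radial glia, 16 without NSP replicate 3, and 0 higher. The list, like the members, was chosen with results of these data known. Odf3b, named for the outer dense fibres of sperm tails, read 4.62, 4.62 and 4.62 in neurospheres and 14.24, 14.28 and 14.25 in SC cells. In neurospheres it was lower than in SC cells by at least 388-fold (adjusted p = 1.1e-08). Tekt1, a tektin inside the doublets, was lower than in SC cells, with a log2 change of -7.94 ± 0.45 (adjusted p = 1.6e-07). Zmynd10, a factor of dynein arm assembly, was lower than in SC cells by at least 107-fold (adjusted p = 1.3e-07). In LVW cells Dnaic1, an intermediate chain of the outer arm, was higher than in radial glia, with a log2 change of 7.48 ± 0.42 (adjusted p = 1.5e-07). Between SC and LVW cells Dnah2, an inner arm heavy chain, was higher in SC cells and Meig1, known from mouse sperm, was lower, and both are named after their values were seen. Dnah2 read 7.93, 7.80 and 6.96 in SC cells and 5.88, 5.80 and 6.05 in LVW cells. Meig1 read 12.59, 12.43 and 12.50 in SC cells and 14.02, 13.84 and 13.96 in LVW cells, without overlap for either gene.

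Of the factors that switch on such genes, 8 of 11 on the array were tested. In SC and in LVW cells 5 of the 8 were higher than in radial glia and 0 lower. In neurospheres 6 were lower than in SC cells. Rfx2 read 8.12, 7.46 and 7.94 in neurospheres and 12.63, 12.49 and 12.53 in SC cells. It read 12.14, 12.21 and 11.95 in LVW cells and 9.10, 9.99 and 9.51 in radial glia. Ependymal cells were highest, radial glia next and neurospheres lowest, without overlap. Trp73, which acts upstream of Foxj1 in multiciliated cells, read 4.82, 4.77 and 4.71 in neurospheres and 10.50, 10.71 and 10.55 in SC cells. Its levels were 10.55, 9.82 and 10.32 in LVW cells and 6.81, 7.27 and 8.10 in radial glia. In neurospheres Trp73 was lower than in SC cells by at least 30.5-fold (adjusted p = 2.6e-07). Rfx4 took another course and read 9.62, 10.17 and 10.11 in neurospheres and 8.41, 9.45 and 9.43 in SC cells. Its values were 9.20, 8.62 and 9.15 in LVW cells and 5.91, 6.92 and 6.70 in radial glia. In neurospheres Rfx4 was higher than in radial glia, with a log2 change of 3.46 ± 0.39 (adjusted p = 7.1e-05), and it was not called against SC cells. In SC cells Myb was lower than in LVW cells, with a log2 change of -1.64 ± 0.38 (adjusted p = 0.024). It was the 1 factor of the 8 called between the ependymal groups.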

How the data were processed

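Biotin-labelled RNA of 12 samples was hybridised to bead arrays, and BeadStudio and lumi are named in the submitters' processing notes without versions. The authors deposited raw values of 46632 probes: per the file headers, every array has an intensity column, with values that go below 0, and a detection p-value column. The authors' processed table holds log2 values and served as an alternative only.

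With neqc of limma 3.58.1 (R 4.3.3, offset 16), the intensities were corrected for background, using controls inferred from detection p-values, then quantile normalised and put on the log2 scale. Probes were named from the platform annotation, where 29976 had 1 symbol, 10 had several and 16646 had none. A probe was kept at a detection p under 0.01 on at least 3 arrays, and the kept probe of highest mean stood for its gene. A single limma model held the 4 groups and all arrays (lmFit and eBayes, two-sided), with p adjusted by Benjamini-Hochberg over 9526 genes. Changes are given as log2 differences ± standard error. Where the lower group was detected on 0 arrays, a fold is a bound: the higher group's mean log2 signal minus the average floor of the lower group, where an array's floor is its weakest detected signal, or the probe's signal if that is higher. Where a group was detected on some arrays only, its log2 change includes signals below detection. Signals of different probes are not compared with each other. The shared spread can make p-values too small for the more variable group. Promoters came from RefSeq. Lists are described by counts, without a test.

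The members and lists were chosen with earlier results of these data known. Values on every array are given for up to 4 members of each role by the size of SC minus radial glia, for members called between SC and LVW cells or between neurospheres and radial glia, for members called against the rest, and for members whose probes gave different calls. Background correction, scaling, filter, choice of probe, threshold, weights, block and the arrays fitted were varied.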

Additional observations from a re-analysis of the deposited data

Results flagged for a closer look

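For 3 members the change against radial glia differed between the 2 ependymal groups, by the direct limma test of SC minus LVW cells over all 12 arrays. The difference was -2.46 for Ccdc150, -3.05 for Cfap20dc and -1.26 for Cfap300, each lower in SC cells. Ccdc150 was below detection on all 3 SC arrays and detected on all 3 LVW arrays. It passed the filter through those LVW arrays alone, so it had to read higher there. Cfap20dc was below detection on SC replicate 3, and Cfap300 on SC replicates 1 and 2. In a fit to the 6 arrays of the 2 groups none of the 3 was called, with limma adjusted p between 0.1 and 0.17. The calls of Cfap20dc and Cfap300 were also lost when single arrays were left out. The values on each array are given in the report.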

How the results depend on the processing

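Of 1133 values for calls of single named genes under the other settings, 1099 stayed on the same side of the threshold with the same direction, 34 lost their call and 0 changed direction. Calls gained elsewhere are not in these numbers. With 1 array left out the numbers were 1202 of 1230, 28 and 0. Leaving out 1 array gave 33 to 35 members higher in LVW cells than in radial glia, 32 to 34 higher in SC cells than in radial glia, 31 to 33 lower and 0 to 1 higher in neurospheres than in SC cells, and 9 to 11 lower and 1 to 2 higher in neurospheres than in radial glia. Between SC and LVW cells it gave 0 to 3 lower and 0 to 1 higher, with 0 lower when LVW replicate 1 or 2 was left out and 35 members tested, and 1 higher without LVW replicate 2. In the same comparison 1 member was lower without background correction, 0 were lower in the fit to 6 arrays, and 1 was higher with the authors' values and with array weights. Against radial glia 1 member was lower in SC cells with median scaling and with array weights, in place of 0. In neurospheres over SC cells 0 members were higher without background correction, without a filter (44 members tested) and in the fit to 6 arrays, in place of 1. In neurospheres over radial glia 0 were higher with median scaling and 5 with array weights, in place of 1.

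Median scaling moved the median of all genes to -0.80 in SC cells over radial glia, -0.57 in LVW cells over radial glia and 0.49 in neurospheres over SC cells. The medians of the members were then 3.04, 3.50 and -4.27, and 30, 32 and 30 members were called in those directions. The calls of Cfap20 and Cfap410 in ependymal cells over radial glia were lost with it. No label says that a replicate number links samples of different groups, and deviations of arrays with the same number correlated between -0.23 and 0.32, against -0.30 and 0.29 for other pairs. With the replicate block 35 members were higher in LVW cells than in radial glia, and Cfap300 was not called between SC and LVW cells (adjusted p = 0.083). The counts over roles and lists without NSP replicate 3 were chosen after seeing the data. The chip as a block was not run, because the file headers name no chip per array, and the part of the chip in the results was not tested. The number of arrays limits the precision, and signals at or below detection have no order. The causes of these shifts were not tested.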

Other observations

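The 7 members that did not pass the filter were detected, if at all, in LVW cells. Cfap53, which encodes a protein inside the doublets, read 6.78, 5.88 and 4.60 in LVW cells and was detected on the first 2 of these arrays, while it read 4.57, 4.60 and 4.63 in SC cells. Lrrc6, a dynein arm assembly factor, read 7.54, 5.35 and 4.77 in LVW cells and was detected on replicate 1. Cfap61, known from the radial spokes of Chlamydomonas, was detected by 1 of its 2 probes on LVW replicate 2, where it read 6.70. Ccdc39, Cfap298, Cfap36 and Cfap97d1 were detected on 0 of the 12 arrays. Their probes give no measure of a change between the groups.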
